A study of Mus musculus with 6 samples.

Results

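Enzymes that break down amino acids in the liver, and those that move methyl and other one-carbon groups between them, were compared between wild-type mice and mice that lack profilin 2 (Pfn2-/-). The 39 genes are a list of symbols of these pathways, drawn up with earlier results of these data known. Of these, 36 were measured, among 22180 genes in all, each by the array row that names it alone and has the highest mean over all 6 arrays. The serine dehydratase gene Sds, its relative Sdsl and the liver glutaminase gene Gls2 were not analysed here. The 36 genes fell into 8 pathway groups of 4 to 6 measured members.

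The liver takes up amino acids from the portal blood, moves their nitrogen to glutamate and aspartate by transamination, and passes it on to urea. Their carbon skeletons feed glucose synthesis, ketone bodies and the citric acid cycle. Serine, glycine and methionine also supply one-carbon units: methionine is activated to S-adenosylmethionine, the methyl donor of most methylation reactions, and the homocysteine left afterwards is either methylated again or turned into cysteine. Many of these enzymes are made mainly in hepatocytes and respond to fasting, glucagon, glucocorticoids and dietary protein.

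Total RNA of whole liver was measured on 6 Affymetrix arrays of strain C57BL/6, 3 of wild type and 3 of Pfn2-/- mice, to see how loss of Pfn2, a protein that binds actin monomers, alters liver gene expression. Replicates 1, 2 and 3 were 9, 8.5 and 8 months of age in both genotypes, and the labels call them independent biological replicas. The sources used here do not say how the allele was made, nor the animals' sex or feeding state. In bulk liver, fewer cells of a type and less RNA per cell cannot be told apart. Values are log2 expression as given by RMA, and every difference is Pfn2-/- minus wild type with its standard error (SE) from limma, fitted across all genes.

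The array row of Pfn2 itself did not separate the genotypes (4.02, 3.85 and 4.09 in wild type, 3.88, 3.81 and 3.93 in Pfn2-/-). The row was dim, at percentile 28.8 of all gene means, so a decrease could hardly show. The sources used here do not say which part of the transcript the row covers. Hepatocyte markers had a mean over 9 measured of 10 listed genes of 11.57 to 11.71 in wild type and 11.6 to 11.63 in Pfn2-/- arrays. Markers of pancreas, fat and skeletal muscle had list means of 3.88 to 4.56 over the 6 arrays, below the median gene at 4.72. Over the 36 members, wild-type replicate 2 was the highest array for 12 genes and Pfn2-/- replicate 2 the lowest for 12. Wild-type replicate 3 lay over 0.5 from the gene's mean for Shmt1, Agxt, Hal and Prodh, and Pfn2-/- replicate 3 did so for Got1, Agxt, Bhmt and Cbs.

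The cytosolic aspartate aminotransferase gene Got1, the mitochondrial alanine aminotransferase gene Gpt2 and the S-adenosylmethionine genes Mat1a and Gnmt were lower in all 3 Pfn2-/- arrays than in any wild-type array. No member passed the limma test after Benjamini-Hochberg adjustment over all genes, and neither did any other gene (0% of 22180, smallest adjusted p = 0.488 for a member and 0.094 for any gene). With the replicate number, and so age, as a block, 7 genes passed, no member among them. At an unadjusted p under 0.05, 5 of the 36 members were found, where the share over all genes was 5.29%. Of these, 4 were lower (2.62% of all genes) and 1, Bhmt, was higher (2.67%). The 4 lower ones were also under an unadjusted p of 0.01, as were 0.586% of all genes. Groups did not overlap for 5 members, all lower in Pfn2-/-, against 9.85% of all genes in either direction and 4.76% lower. The difference was below 0 for 24 members, above 0 for 10 and at 0.00 for 2, while 48.9% of all genes lay below 0. The median difference was -0.14 for the members and 0.00 for all genes, and without Pfn2-/- replicate 3 the members' median was -0.06. Without wild-type replicate 3 there were 8 members at an unadjusted p under 0.05 (7.03% of all genes), and 6 genes passed the adjusted threshold, no member among them. Members without overlap numbered 14 without wild-type replicate 3 and 9, 10 and 9 without Pfn2-/- replicates 1, 2 and 3, where 18.8% to 22.2% of all genes had no overlap. They numbered 6 without wild-type replicate 1 and 5 without wild-type replicate 2, where the shares of all genes were 17.7% and 17.5%.

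**Figure D1:**
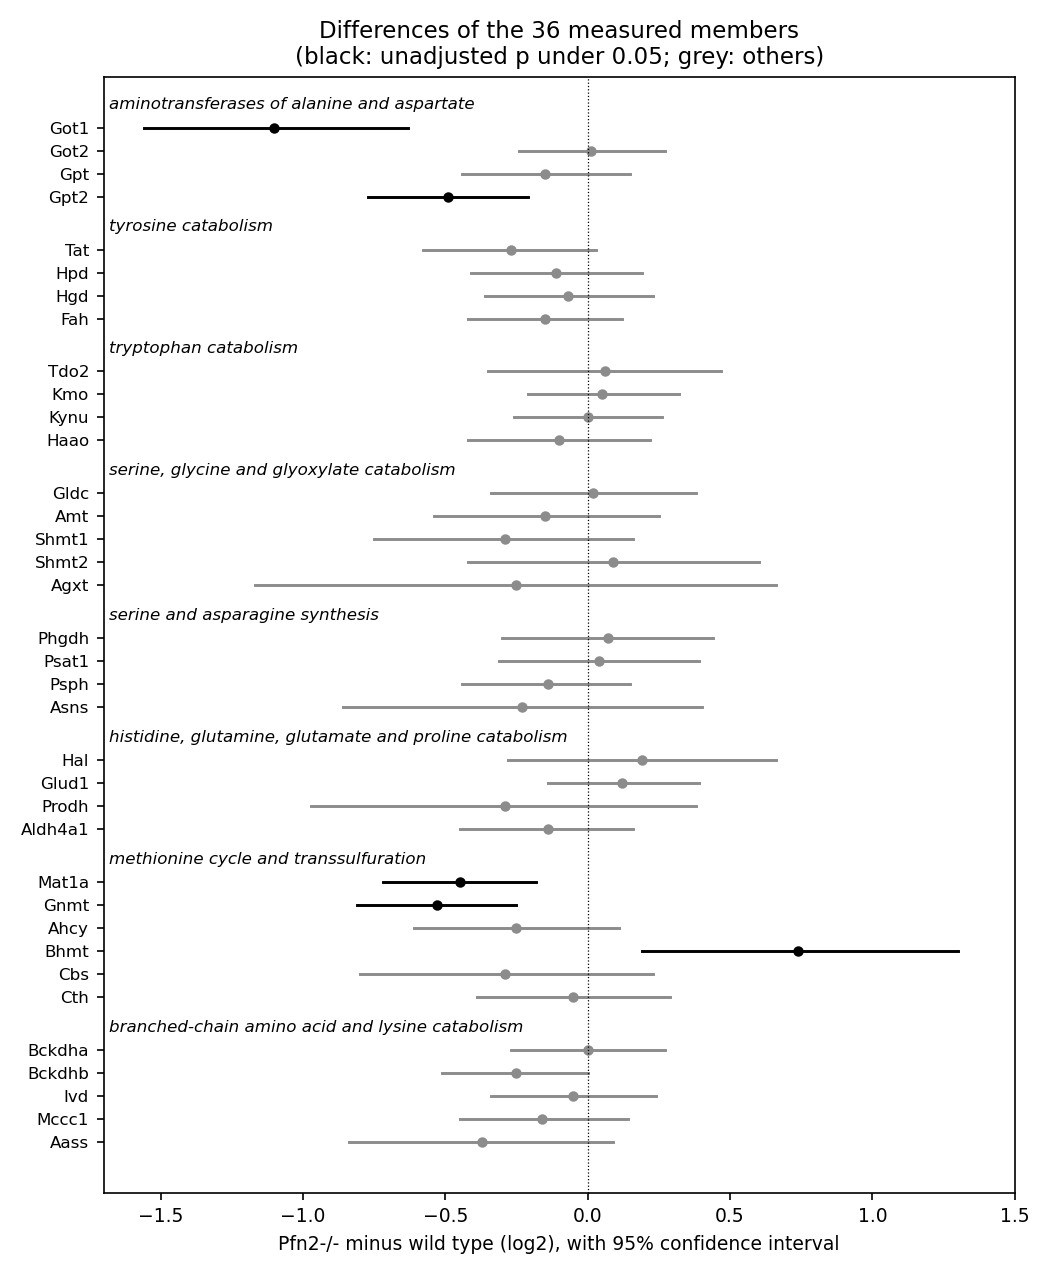
Difference between Pfn2-/- and wild type on the log2 scale (x axis) for the 36 measured members (y axis), grouped by pathway, with the 95% confidence interval of the limma fit from 3 arrays per genotype. Got1 at -1.10 lies farthest below 0 and Bhmt at 0.74 farthest above it, and black marks the 5 members with an unadjusted p under 0.05.

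Aminotransferases move the amino group of alanine or aspartate onto 2-oxoglutarate and so link amino acids to glucose synthesis and the malate-aspartate shuttle. Got1, the cytosolic enzyme for aspartate, had values of 10.96, 11.44 and 10.52 in wild-type replicates 1, 2 and 3 and 9.93, 9.96 and 9.74 in Pfn2-/-. All wild-type arrays lay above all Pfn2-/- arrays, and the wild-type arrays were spread more widely (SD 0.46 against 0.12). The difference was -1.10 (SE 0.21, 95% confidence interval -1.56 to -0.63), or 2.14-fold lower, with an adjusted p of 0.488. It ranged from -1.32 to -0.86 when single arrays were left out. Got2, the mitochondrial enzyme for the same reaction, had values of 10.18 to 10.31 in wild type and 10.22 to 10.26 in Pfn2-/-, a difference of 0.01 with an interval of -0.24 to 0.27. A second, dimmer row of Got2 differed by -0.15, and the mean of both rows by -0.07.

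For alanine, the mitochondrial enzyme was the one with groups that did not overlap. Gpt2 lay at 10.14, 10.04 and 10.00 in wild type against 9.61, 9.41 and 9.69 in Pfn2-/-, with no overlap and little spread in either genotype. The difference was -0.49 (SE 0.13, interval -0.77 to -0.21, adjusted p = 0.746). The cytosolic enzyme gene Gpt had 8.26, 8.29 and 8.20 against 8.32, 7.99 and 8.00, so that 1 Pfn2-/- array lay above all wild-type arrays, and the difference was -0.15 (SE 0.13).

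**Figure D2:**
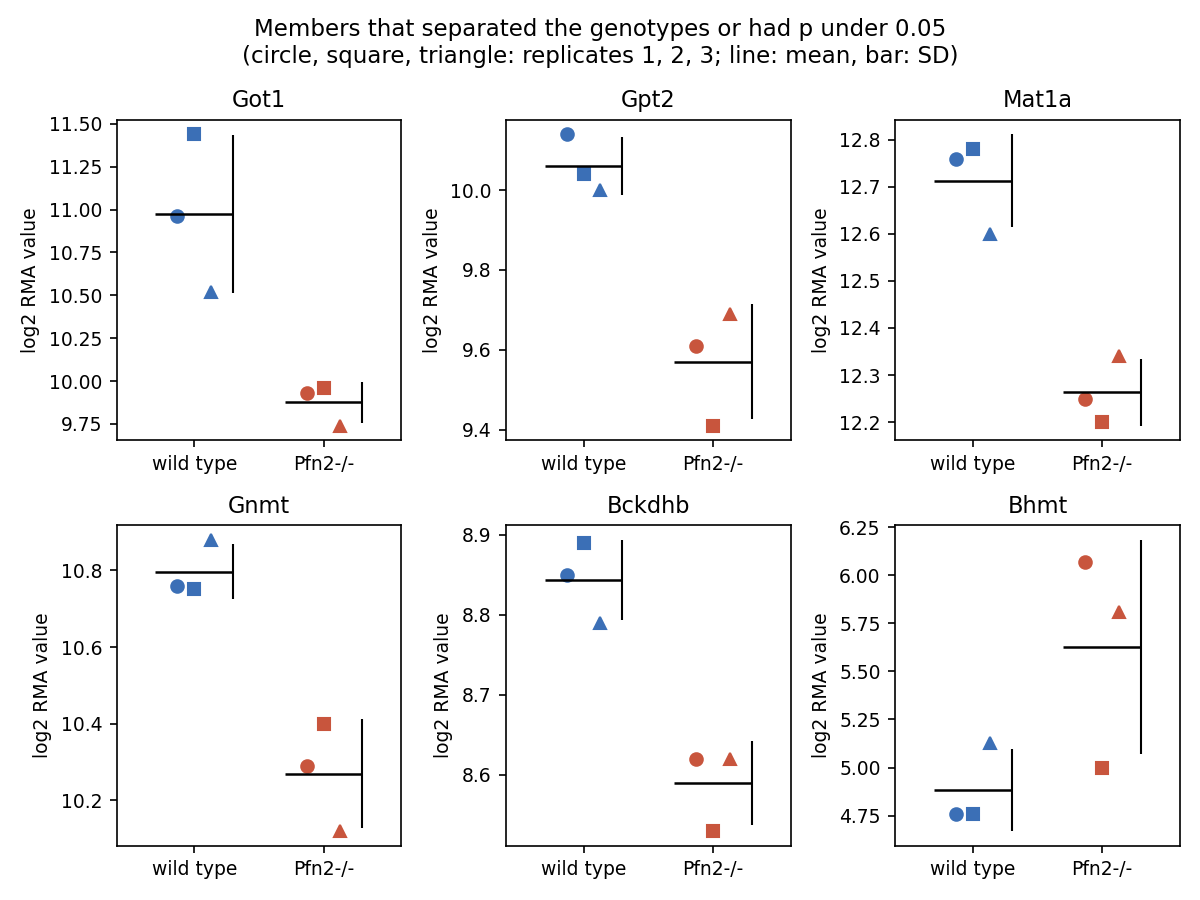
Log2 RMA values (y axis, a separate range for each gene) of 6 members in wild type and Pfn2-/- (x axis), 1 symbol per array with the mean as a line and the SD as a bar, 3 arrays per genotype. Got1, Gpt2, Mat1a, Gnmt and Bckdhb show no overlap, with Got1 at 10.52 to 11.44 against 9.74 to 9.96, while Bhmt overlaps between 5.00 and 5.13.

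Ratios within an array compare 2 related enzymes free of differences between arrays that both rows share. Pairs were chosen with the values known, so the ratios are a description, and 4 were compared, each by a two-sided exact permutation test over the 6 arrays. The log2 ratio of Got1 to Got2 was 0.78, 1.25 and 0.21 in wild type and -0.33, -0.26 and -0.50 in Pfn2-/-, a difference of -1.11. For Gpt2 to Gpt it was 1.81 ± 0.07 (SD) in wild type and 1.47 ± 0.20 in Pfn2-/-, and for Shmt1 to Shmt2, the cytosolic and mitochondrial serine hydroxymethyltransferases, -0.85 ± 0.08 and -1.23 ± 0.27. The ratio of Bckdhb to Bckdha, which encode subunits of 1 enzyme complex, was 0.39, 0.39 and 0.42 in wild type and 0.10, 0.20 and 0.14 in Pfn2-/-. In all 4 pairs the ratios of the genotypes did not overlap, but the gap was narrow for Gpt2 to Gpt and Shmt1 to Shmt2. Their lowest wild-type ratios were 1.75 and -0.93, and their highest Pfn2-/- ratios 1.69 and -0.96. Got1, Gpt2 and Bckdhb had no overlap on their own either, so their pairs were picked from genes that already separated the genotypes. The share of gene pairs without overlap over all genes was not computed. Each had an exact permutation p of 0.1 (0.1 after adjustment over the 4 pairs). That is the smallest that 3 arrays against 3 allow, so the test could not pass 0.05 and decides nothing here.

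**Figure D3:**
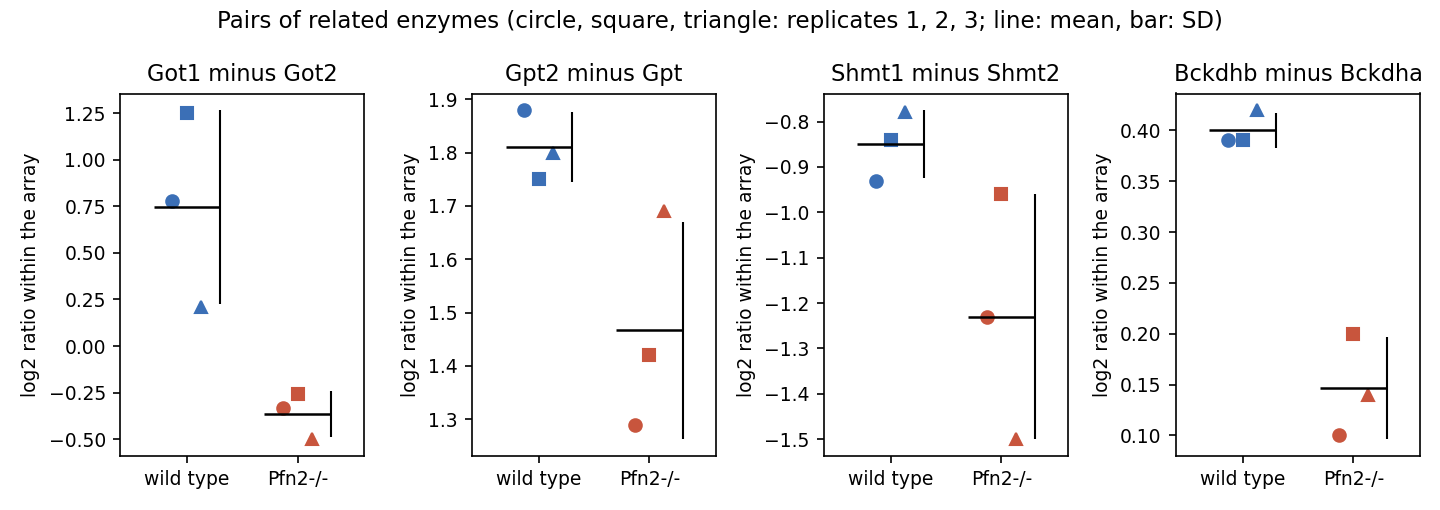
Log2 ratio of 2 related enzyme genes within each array (y axis) in wild type and Pfn2-/- (x axis), 1 symbol per array with the mean as a line and the SD as a bar, 3 arrays per genotype. The ratio of Got1 to Got2 has the widest gap, with a lowest wild-type value of 0.21 and a highest Pfn2-/- value of -0.26, and Bckdhb to Bckdha the least spread.

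Promoter windows are shown for Got1, Gpt2 and Gnmt, lower in every Pfn2-/- array, and for Asns, the standard example of a gene switched on by amino acid shortage. Bckdhb, also lower in every Pfn2-/- array, has a window that is not shown here. The windows run from 250 bases before to 50 bases after the RefSeq start in GRCm38.p6, and 32 of the 36 members have one in the table used, Mat1a not among them. Capitals mark the core of the amino acid response element, TGATGNAA, bound by ATF4 with a C/EBP partner, and the CCAAT box, CCAAT, each on either strand. The Got1 window is chr19:43524556-43524855, minus strand, that of Asns chr6:7693160-7693459, minus strand, that of Gpt2 chr8:85492326-85492625, plus strand and that of Gnmt chr17:46729116-46729415, minus strand.
Got1: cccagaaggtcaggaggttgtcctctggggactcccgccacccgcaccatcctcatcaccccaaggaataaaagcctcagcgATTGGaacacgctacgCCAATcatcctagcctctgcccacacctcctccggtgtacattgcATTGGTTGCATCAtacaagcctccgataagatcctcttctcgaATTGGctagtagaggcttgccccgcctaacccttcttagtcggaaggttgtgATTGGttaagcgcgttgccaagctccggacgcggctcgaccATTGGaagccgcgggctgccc
Asns: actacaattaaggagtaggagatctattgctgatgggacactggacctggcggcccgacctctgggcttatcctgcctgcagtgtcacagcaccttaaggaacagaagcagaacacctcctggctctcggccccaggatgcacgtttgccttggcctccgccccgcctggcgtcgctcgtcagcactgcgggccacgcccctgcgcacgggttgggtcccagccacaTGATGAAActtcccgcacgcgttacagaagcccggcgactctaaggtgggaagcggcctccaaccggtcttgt
Gpt2: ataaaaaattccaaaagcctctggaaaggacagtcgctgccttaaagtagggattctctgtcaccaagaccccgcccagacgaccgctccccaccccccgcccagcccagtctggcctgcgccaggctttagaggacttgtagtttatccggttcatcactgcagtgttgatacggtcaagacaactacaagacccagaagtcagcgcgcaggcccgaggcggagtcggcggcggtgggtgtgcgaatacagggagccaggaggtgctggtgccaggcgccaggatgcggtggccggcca
Gnmt: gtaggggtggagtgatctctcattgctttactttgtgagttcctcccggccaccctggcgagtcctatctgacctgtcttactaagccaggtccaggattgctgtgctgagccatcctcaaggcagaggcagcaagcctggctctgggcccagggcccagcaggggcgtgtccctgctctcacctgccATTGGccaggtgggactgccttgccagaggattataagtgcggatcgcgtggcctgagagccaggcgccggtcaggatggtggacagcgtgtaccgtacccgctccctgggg

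The response element core occurred in 2 of the 32 member windows, Got1 and Asns, and in 3.97% of all 32851 windows. In Got1 it lay on the opposite strand, at bases -102 to -95 from the start, directly after a CCAAT box at -107 to -103, and 6 CCAAT boxes were found in that window. In Asns it lay at -23 to -16 on the coding strand. Neither match overlapped another of the motifs given here. A CCAAT box was present in 20 of the 32 windows (37.4% of all), the CRE half-site TGACG in 4 (20.8%), the glucocorticoid half-site TGTTCT in 6 (19.0%) and the C/EBP site TTGCNNCAA in 1, that of Bckdha (2.08%), on either strand. Gnmt held 1 CCAAT box at -62 to -58, and Gpt2 none of these letters. These motifs were kept from a wider set searched, with the expression values and the matches known. Asns itself lay at 6.52, 7.08 and 6.45 in wild type against 5.95, 7.13 and 6.28 in Pfn2-/-.

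In the methionine cycle, Mat1a and Gnmt, which make and use S-adenosylmethionine, had lower values in every Pfn2-/- array, and Bhmt, a gene of homocysteine methylation, had a higher mean with overlapping groups. None of the 3 passed the adjusted threshold. Mat1a, the liver form of methionine adenosyltransferase, had 12.76, 12.78 and 12.60 in wild type and 12.25, 12.20 and 12.34 in Pfn2-/-. The genotypes did not overlap and the difference was -0.45 (SE 0.12, interval -0.72 to -0.18, adjusted p = 0.749). Gnmt, the glycine methyltransferase that uses up surplus S-adenosylmethionine, lay at 10.76, 10.75 and 10.88 in wild type against 10.29, 10.40 and 10.12 in Pfn2-/-. Here too every Pfn2-/- array was below every wild-type array, by -0.53 on average (SE 0.13, interval -0.81 to -0.25, adjusted p = 0.714), or 1.44-fold. Ahcy, which splits S-adenosylhomocysteine into homocysteine and adenosine, was at 8.94 and 8.95 in Pfn2-/- replicates 1 and 2 but at 9.42 in replicate 3, inside the wild-type span of 9.19 to 9.44. Its difference was -0.25 (SE 0.16), and a second Ahcy row differed by -0.28.

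Bhmt, which methylates homocysteine with betaine, had values of 4.76, 4.76 and 5.13 in wild type and 6.07, 5.00 and 5.81 in Pfn2-/-. Pfn2-/- replicates 1 and 3 lay above all wild-type arrays and replicate 2 lay inside their span. The difference was 0.74 (SE 0.25, interval 0.19 to 1.30, adjusted p = 0.876), and 0.52 without Pfn2-/- replicate 1, where the unadjusted p was 0.0625. The row was dim for a gene known to be abundant in mouse liver, at percentile 59.7 of all gene means, and RMA compresses differences of dim rows. Its paralog Bhmt2, which methylates homocysteine with another donor, differed by 0.03 (SE 0.19). In transsulfuration, the route from homocysteine to cysteine, Cbs differed by -0.29 (SE 0.23) and Cth by -0.05 (SE 0.15). Pfn2-/- replicate 3 set the low end of Cbs at 8.33 against 8.84 to 9.43 in the other 5 arrays.

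All 4 genes of tyrosine breakdown lay below wild type on average, by less than 0.3 each, and none had an unadjusted p under 0.05. Tat, the aminotransferase that starts the pathway and a classical target of glucocorticoids, was at 12.92, 13.04 and 12.74 in wild type and 12.51, 12.57 and 12.80 in Pfn2-/-. Pfn2-/- replicate 3 alone reached the wild-type span, and the difference was -0.27 (SE 0.14, interval -0.58 to 0.03). Further down the pathway, Hpd differed by -0.11 (SE 0.13), Hgd by -0.07 (SE 0.13) and Fah, the last enzyme, by -0.15 (SE 0.12).

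Tryptophan breakdown along the kynurenine route gave differences of -0.10 to 0.06. Tdo2, which opens the ring and limits the rate of the route, lay at 11.38, 11.44 and 10.76 in wild type and 11.21, 11.39 and 11.17 in Pfn2-/-, with wild-type replicate 3 the lowest of the 6. Its difference was 0.06 (SE 0.18). Kmo, a hydroxylase, differed by 0.05 (SE 0.12), the kynureninase gene Kynu by 0.00 (SE 0.12) and Haao, whose product leads to NAD synthesis, by -0.10 (SE 0.14). Haao had the smallest p of these 4 genes, with 9.94, 9.99 and 10.35 in wild type and 10.08, 10.00 and 9.90 in Pfn2-/-. Wild-type replicate 3 stood above the other 5 arrays.

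Genes of serine, glycine and glyoxylate metabolism showed wide spreads within a genotype. Agxt, the aminotransferase that clears glyoxylate, had 8.96, 9.39 and 7.65 in wild type and 8.55, 8.88 and 7.81 in Pfn2-/-. Replicate 3 was the lowest array in both genotypes, and all Pfn2-/- values lay inside the wild-type span. The difference of -0.25 had an SE of 0.41, and it went from -0.76 without wild-type replicate 3 to 0.11 without wild-type replicate 2. Shmt1 had 7.95, 7.77 and 8.60 in wild type and 7.98, 7.66 and 7.80 in Pfn2-/-. Wild-type replicate 3 alone was high, and the difference of -0.29 (SE 0.20) shrank to -0.05 without that array. Shmt2 spanned 8.61 to 9.38 in wild type and 8.62 to 9.30 in Pfn2-/- (0.09, SE 0.23). The glycine cleavage genes Gldc and Amt differed by 0.02 (SE 0.16) and -0.15 (SE 0.18).

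Phgdh, Psat1 and Psph carry out the 3 steps from a glycolytic intermediate to serine. The rows were dim, with 5.23 to 5.83 for Phgdh and 3.66 to 4.15 for Psat1, and they differed by 0.07 (SE 0.17) and 0.04 (SE 0.15). Psph had the smallest p of this group, with 5.05, 5.04 and 5.16 in wild type and 5.14, 4.80 and 4.88 in Pfn2-/- (-0.14, SE 0.13). Its groups overlapped through Pfn2-/- replicate 1. Psat1 was the 1 member whose mean was not above the median of all genes, so a decrease could hardly show. Asns, asparagine synthetase, differed by -0.23 (SE 0.28), with replicate 2 the highest array in both genotypes.

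In histidine, glutamate and proline breakdown, Hal, the periportal enzyme that opens histidine catabolism, differed by 0.19 (SE 0.21) and the glutamate dehydrogenase gene Glud1 by 0.12 (SE 0.12). Glud1 lay at 10.74, 10.64 and 10.63 in wild type against 10.86, 10.68 and 10.84 in Pfn2-/-, so that replicate 2 kept the groups from separating. Prodh, the first enzyme of proline breakdown, was at 8.46 in wild-type replicate 3 against 6.98 to 7.81 in the other arrays. Its difference of -0.29 (SE 0.30) turned to 0.07 without that array. Aldh4a1, the next step, had the smallest p of this group, with 8.12, 8.16 and 8.21 in wild type and 8.26, 7.87 and 7.93 in Pfn2-/-. Pfn2-/- replicate 1 lay above all wild-type arrays and the other two below them, for a difference of -0.14 (SE 0.14).

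Among enzymes of branched-chain amino acids and lysine, Bckdhb had the tightest groups. This gene encodes the beta part of the first subunit of the branched-chain ketoacid dehydrogenase, and it lay at 8.85, 8.89 and 8.79 in wild type against 8.62, 8.53 and 8.62 in Pfn2-/-. The groups did not overlap, but the difference was only -0.25 (SE 0.11, unadjusted p = 0.0506, adjusted p = 0.92). Bckdha, the alpha part, differed by 0.00 (SE 0.12). The leucine enzymes Ivd and Mccc1 differed by -0.05 (SE 0.13) and -0.16 (SE 0.13). Aass, which starts lysine breakdown, was at 10.97, 11.02 and 10.20 in wild type and 10.26, 10.51 and 10.30 in Pfn2-/-. Wild-type replicate 3 lay below all Pfn2-/- arrays and the other wild-type arrays above them, and the difference of -0.37 (SE 0.21) was -0.64 without that array, with an unadjusted p of 0.0015 and an adjusted p of 0.32 (0.32 to 0.999 over all alternatives).

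**Figure D4:**
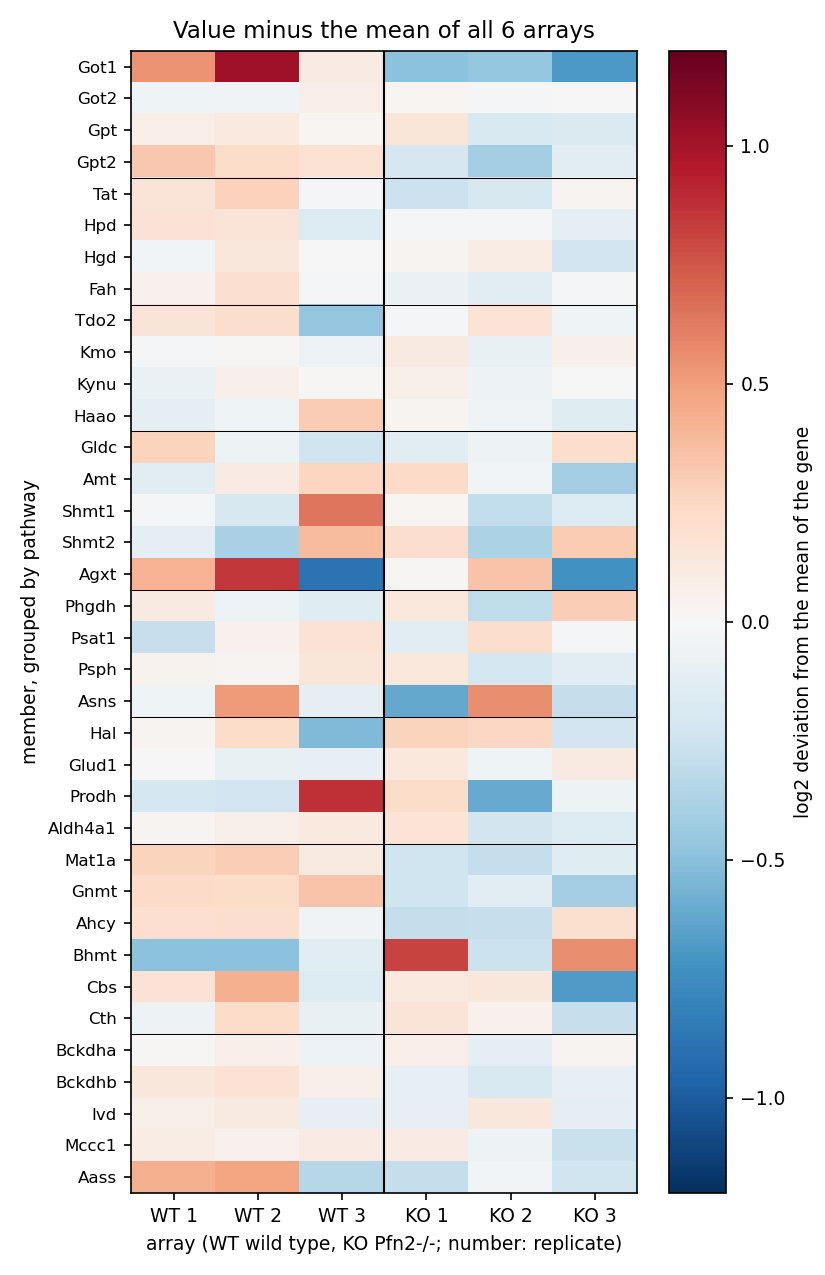
Log2 value minus the mean of all 6 arrays (colour, red above and blue below) for the 36 members (rows, grouped by pathway, lines between groups) in each array (columns, wild type left of the line and Pfn2-/- right of it). Got1 is above its mean in wild type and below it in Pfn2-/-, while Prodh and Shmt1 follow single arrays. Agxt is lowest in replicate 3 of both genotypes, at 7.65 in wild type and 7.81 in Pfn2-/-.

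Other enzymes of the same pathways are read against the 5.29% of all genes with an unadjusted p under 0.05. Of 46 measured genes of amino acid catabolism outside the members, 2 were higher and 2 lower at that p, and the median difference was 0.01, with 22 below 0 and 24 above. Aadat, an aminotransferase of the kynurenine and lysine routes, was at 9.81, 9.52 and 9.39 in wild type and 10.29, 10.14 and 10.27 in Pfn2-/- (0.66, SE 0.14, adjusted p = 0.621). Ppm1k, the phosphatase that activates the branched-chain ketoacid dehydrogenase, lay at 8.54, 8.52 and 8.14 against 8.97, 9.23 and 8.75 (0.58, SE 0.16, adjusted p = 0.788). Both were higher in every Pfn2-/- array. The 2 lower ones, named after their values were seen, were Uroc1, an enzyme of histidine breakdown (-0.32, SE 0.13, no overlap), and Qdpr, which regenerates the cofactor of phenylalanine hydroxylase (-0.37, SE 0.16, overlapping groups). Of 29 measured genes of one-carbon metabolism outside the members, 0 were higher and 1 was lower at that p, the mitochondrial folate carrier gene Slc25a32 (-0.52, SE 0.16), and the list's median was -0.04. In that list 18 of 29 genes lay below 0, and groups did not overlap for 2, both lower (4.76% of all genes).

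Among 32 measured amino acid transporters, 1 was higher (2.67% of all genes) and 2 lower (2.62%) at an unadjusted p under 0.05. The median was -0.03. The mitochondrial glutamate carrier gene Slc25a22 had the smallest p, at 7.74, 7.77 and 7.52 in wild type and 7.28, 7.14 and 7.33 in Pfn2-/- (-0.43, SE 0.13). Of 22 measured regulators of amino acid enzyme genes, 4 were lower (2.62% of all genes) and 0 higher, with a median of -0.08 and 15 below 0. The 4, named after their values were seen, all had an adjusted p of 0.882 or more. Ppargc1a, a coactivator of fasting genes, was at 7.58, 7.62 and 6.81 in wild type and 6.58, 7.13 and 6.33 in Pfn2-/- (-0.66, SE 0.25), with groups that overlapped through wild-type replicate 3 and Pfn2-/- replicate 2. Cebpb, a C/EBP transcription factor, was at 7.08, 6.96 and 7.19 against 6.75, 6.33 and 6.79 (-0.45, SE 0.15), with no overlap. Foxo1, a factor restrained by insulin, and Eif2ak4, the kinase GCN2 that senses uncharged tRNA, differed by -0.35 (SE 0.15) and -0.32 (SE 0.14). The regulators Klf15, Atf4, Nr3c1 and Hnf4a, named whatever their values, differed by -0.17 (SE 0.16), -0.13 (SE 0.14), 0.10 (SE 0.12) and -0.10 (SE 0.18). Of 26 measured targets of ATF4, Asns, Psat1, Phgdh, Psph, Shmt2 and Cth are also members. At an unadjusted p under 0.05, 1 target was higher (2.67% of all genes) and 0 were lower (2.62%), and the median was -0.09. The higher one was the transporter gene Slc7a5. Among these targets 19 lay below 0 (48.9% of all genes), and groups did not overlap for 1, which was lower (4.76% of all genes).

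Several of these enzymes are known to be zonated along the liver lobule, so markers of its ends are given beside them. Over 10 measured periportal markers, Hal among them, the mean deviation from each gene's average was 0.17, 0.26 and -0.23 in wild-type replicates 1, 2 and 3 and -0.09, 0.03 and -0.15 in Pfn2-/-. Aass and Agxt were low in wild-type replicate 3 as well. At an unadjusted p under 0.05, 2 of the 10 were lower (2.62% of all genes), both genes of the urea cycle: Asl (-0.62, SE 0.12) and Ass1 (-0.49, SE 0.18). Cps1, a urea cycle gene of the same list, was not among them. It is also a hepatocyte marker, and the differences of those markers ran from -0.18 to 0.10. The difference was below 0 for 7 periportal markers and above 0 for 3, with a median of -0.10. Over 12 pericentral markers the deviation was -0.25, -0.02 and 0.22 in wild type and 0.22, -0.21 and 0.05 in Pfn2-/-. At that p 3 of the 12 were lower (2.62% of all genes), namely Cyp7a1, Slc1a4 and Gstm3. Most of the list went the other way, with 7 above 0, 5 below 0 and a median difference of 0.11. Markers of sinusoidal endothelial cells were at 0.16, 0.25 and -0.12 in wild type and -0.14, 0.04 and -0.18 in Pfn2-/-, those of stellate cells at 0.14, 0.16 and -0.16 against -0.10, 0.11 and -0.14, and those of macrophages at -0.07, 0.47 and -0.26 against -0.02, 0.03 and -0.16. The 5 measured of 7 bile duct markers had list means of 4.42, 4.39 and 4.41 in wild type and 4.55, 4.55 and 4.65 in Pfn2-/-, without overlap. All these means lay below the median gene at 4.72. Of the 5 markers, Sox9 (0.58, SE 0.20) and Cftr (0.33, SE 0.13) were higher at an unadjusted p under 0.05 (2.67% of all genes). Both were higher in every Pfn2-/- array, as were 1129 of 22180 genes. The Cftr row was very dim, at percentile 5.7 of all gene means. The duct keratins Krt19 and Krt7 and Epcam differed by 0.05, 0.02 and -0.10. Markers of lymphocytes and neutrophils had list means of 4.42, 4.85 and 4.44 in wild type and 4.60, 4.62 and 4.31 in Pfn2-/-. The part of these cell types and zones in the differences of the members was not tested.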

How the data were processed

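Whole-liver RNA of 3 wild-type and 3 Pfn2-/- mice was labelled with the GeneChip WT PLUS kit and read on Affymetrix arrays, per the labels' protocols. The authors deposited log2 expression values made with RMA, per the submitters' processing notes, which also name limma. RMA corrects background, makes the arrays' distributions alike and summarises probes, so it compresses differences of dim rows. The sources used here do not give its version, the probe set level or the build. Arrays have no read depth, and their number limits the precision.

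Of 34390 rows, 23521 had exactly 1 symbol in the platform annotation, and the row of highest mean was kept per gene (22180 genes). Gene IDs of all 36 measured members matched the RefSeq table, with the same symbol. The main test was limma 3.58.1 under R 4.3.3 on genotype alone (lmFit and eBayes, two-sided, Benjamini-Hochberg over all genes), and ratios by exact permutation in SciPy 1.17.1. The fit was also run on simulated data, as a check of the code only, and no result here rests on it. Unadjusted p served as a description. Members, lists and pathway groups were chosen with earlier results of these data known.

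Named by rule were members with an unadjusted p under 0.05 or without overlap, the member of smallest p in each group, and up to 4 genes per other list with a p under 0.01, with Klf15, Atf4, Nr3c1 and Hnf4a added. Markers of blood had 1 of 7 genes measured. Same-numbered arrays were of the same age but were taken as unpaired, since the labels name no shared litter, batch or day and the correlations of their deviations were -0.082, 0.155 and 0.02. Alternatives were other normalizations, filters, rows per gene, moderations, array weights, a replicate block and leaving out each array.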

Additional observations from a re-analysis of the deposited data

How the results depend on the processing

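Each of the 17 alternatives kept Got1, Gpt2, Mat1a and Gnmt lower at an unadjusted p under 0.05, and 16 kept Bhmt higher at it, the exception being without Pfn2-/- replicate 1. None of the 36 members passed the adjusted threshold in any of them. The adjusted p of Got1 ran from 0.0677 to 0.999. Bckdhb was under an unadjusted p of 0.05 in 6 of 17. Over all genes, 2 passed the adjusted threshold with array weights, 7 with the replicate block, and 0 to 6 when single arrays were left out, the most without wild-type replicate 3. Members at an unadjusted p under 0.05 numbered 8 with array weights, where 7.22% of all genes were at that p, and 4 to 8 with single arrays left out, 8 of them without wild-type replicate 3, where 7.03% of all genes were at that p. Members without overlap numbered 5 to 14 with single arrays left out, where 17.5% to 22.2% of all genes had none. The members' median was -0.15 to -0.06 with single arrays left out.

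The sign of 14 members turned under some alternative. With array weights Tdo2 was -0.02 and Gldc -0.08, and Got2 was -0.01 with cyclic loess and -0.07 with the mean of its rows. With single arrays left out the ranges were -0.01 to 0.06 for Got2, -0.15 to 0.19 for Tdo2, -0.10 to 0.16 for Gldc, -0.18 to 0.03 for Haao, -0.03 to 0.35 for Hal and -0.48 to 0.07 for Prodh. They were -0.09 to 0.14 for Psat1, -0.09 to 0.30 for Shmt2, -0.76 to 0.11 for Agxt, -0.14 to 0.08 for Cth, -0.57 to 0.02 for Asns, -0.13 to 0.03 for Hgd, -0.30 to 0.02 for Amt and -0.05 to 0.24 for Phgdh. The cause was not tested. Kynu and Bckdha, at 0.00, have no direction. Scalings moved the median gene by 0.007 at most. With the filter at the median, 35 of 36 members were tested.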
